A study of Homo sapiens with 12 samples.

Results

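The HSP70 family of the cytosol and its close kin was followed here through 10 genes named by symbol, of 43236 symbols in each of 12 RNA-seq count tables: HSPA1A, HSPA1B, HSPA1L, HSPA2, HSPA4, HSPA4L, HSPA6, HSPA8, HSPA13 and HSPA14. HSPA1A and HSPA1B were also summed, because they are near-identical copies. The cells were HOS-MNNG, an established human osteosarcoma line that was transformed chemically from HOS cells and is called MNNG/HOS in the study. They were given the solvent DMSO or 300 nM NXP800, an orally available small molecule that came from work on inhibitors of the heat shock factor 1 pathway, for 6 h or 24 h, in 4 groups of 3 libraries that share the cell line and the solvent. All results therefore concern 1 cell line. The labels number the libraries of a group as replicates, and the study describes its results in general as means of independent experiments without saying how the cultures for RNA-seq were kept apart. If they were not, p-values measure only a technical spread. The comparison asked how NXP800 changes transcript levels against DMSO at each time.

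HSP70 proteins are ATP-driven chaperones that bind exposed hydrophobic stretches of unfolded proteins and release them in cycles. J-domain proteins deliver clients and start ATP hydrolysis, and nucleotide exchange factors, among them the HSP110-like proteins, reopen the cycle by letting ADP go. Heat shock factor 1, the main transcription factor of the heat shock response, switches on the inducible genes by binding heat shock elements, which are repeats of the unit GAA in alternating direction, while the constitutive cognate HSPA8 (also called HSC70) is made in most cells without stress.

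All 12 libraries were deep and of similar size, between 30810614 and 31947656 counts on genes. Read pairs on no annotated gene were 6.66 to 8.14% of a library at 6 h and 2.73 to 3.67% at 24 h. Those aligned to several places were 1.86 to 1.99% and 2.96 to 3.37%. The 2 times thus differ in more than the time of exposure, and NXP800 was compared with DMSO within a time. Of 10 osteoblast or mesenchymal markers, 5 averaged over 1 CPM, the usual count scaled to library size, here by TMM (RUNX2, SPP1, COL1A1, SPARC and VIM), while SP7, ALPL, BGLAP, IBSP and COL1A2 did not. Of the epithelial markers 3 of 4 (EPCAM, KRT8 and KRT18), 1 of 4 blood markers (CD14) and none of 3 endothelial markers also did, and the summed level ran from 3805 to 6789 CPM for the first list, from 1083 to 1783 for the epithelial, from 0.154 to 3.40 for the blood and from 0.264 to 1.83 for the endothelial list. The group means of these sums were lower with NXP800: 5160 against 4346 CPM at 6 h and 6343 against 4290 at 24 h for the first list, 1408 against 1267 and 1763 against 1225 for the epithelial, 2.16 against 0.276 and 2.85 against 0.668 for the blood, and 1.47 against 0.654 and 1.09 against 0.415 for the endothelial list. Their part in the results was not tested. With bulk RNA of this cell line, a lower level in all cells and in only some of them cannot be told apart.

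The inducible genes HSPA1A and HSPA1B lie in the major histocompatibility region of chromosome 6. HSPA1A is at chr6:31815543-31817942 and HSPA1B at chr6:31827738-31830254 (GRCh38.p14, + strand), each with a single exon and 9795 bases apart. Their coding sequences were 99.8% identical, with 4 differing bases of 1923, and 72.4% of all 100-base windows of the HSPA1A transcript, the length of 1 read, occurred unchanged in HSPA1B. The counts of either copy alone are therefore uncertain, and the deposited tables list reads with several alignments apart from the genes. The 250 bases upstream of the start sites were 94.4% identical, with 14 differences over 249 aligned bases. They are shown because the estimated falls of these copies at 6 h were the largest of the members, though not clearly apart from that of HSPA8. The log2 fold changes at 6 h were -2.89 for HSPA1A, -2.50 for HSPA1B and -2.44 for HSPA8, with overlapping confidence intervals. Capitals mark matches to the motifs given after the sequences (RefSeq, GRCh38.p14, + strand, chr6:31815293-31815542 and chr6:31827488-31827737).
HSPA1A: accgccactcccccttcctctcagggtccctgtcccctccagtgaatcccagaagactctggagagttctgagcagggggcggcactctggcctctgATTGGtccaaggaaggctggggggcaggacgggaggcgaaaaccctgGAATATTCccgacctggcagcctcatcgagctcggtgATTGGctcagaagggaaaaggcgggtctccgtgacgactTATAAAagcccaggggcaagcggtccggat
HSPA1B: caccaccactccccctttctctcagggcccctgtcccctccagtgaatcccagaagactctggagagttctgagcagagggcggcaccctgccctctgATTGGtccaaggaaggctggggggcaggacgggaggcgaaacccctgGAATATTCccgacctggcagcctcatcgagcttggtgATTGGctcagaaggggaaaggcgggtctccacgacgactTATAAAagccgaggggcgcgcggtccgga

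In reading order, the capitals in each window mark a CCAAT box on the reverse strand, the head-to-head pair GAANNTTC, a second such CCAAT box and a TATA box (TATAAA). The pair lay 106 bases upstream of the start in HSPA1A and 105 in HSPA1B, and the TATA box 30 and 29 bases upstream. HSPA1L, at chr6:31809619-31815283 on the opposite strand, starts 259 bases from HSPA1A, and the upstream windows of both genes share 241 bases, so that they hold the same pair.

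A full heat shock element of 3 units, GAANNTTCNNGAA on either strand, was found in the windows of HSPA8 and HSPA6 and of no other member with a window. The HSPA8 window lies upstream of 1 annotated start, and since the gene's span takes in longer transcript forms, both of its elements lie inside that span. HSPA8 (chr11:123057489-123062462, - strand, 9 exons in its main transcript) held 2 of them, 230 and 55 bases upstream of its start, and HSPA6 (chr1:161524540-161526894, + strand, 1 exon) held 1, 74 bases upstream. The 30 bases around each are shown because these elements set the windows of HSPA8 and HSPA6 apart, with the element in capitals (chr11:123062345-123062374, chr11:123062170-123062199 and chr1:161524458-161524487, on the strand of the gene).
HSPA8 distal: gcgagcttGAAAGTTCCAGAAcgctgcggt
HSPA8 proximal: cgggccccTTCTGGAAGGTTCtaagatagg
HSPA6: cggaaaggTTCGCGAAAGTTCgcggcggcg

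Among 34941 RefSeq windows of the same length, searched on both strands, 0.441% held the 3-unit element, 5.8% the pair GAANNTTC, 6.62% the tail-to-tail pair TTCNNGAA, 32% CCAAT and 10.8% TATAAA. Both pairs are contained in the 3-unit element and overlap it. TGATGNAAT, the composite site of C/EBP and ATF proteins, was present in 0.893% of windows and in none of the members' windows. HSPA4L had 3 windows for alternative starts, of which 1 held the tail-to-tail pair and another a CCAAT box and a TATA box. The window of HSPA2 held 1 CCAAT box, and the windows of HSPA4 and HSPA13 held none of the letters searched. A match is a run of letters and not a measured binding site, and a window without one says nothing about the factor. HSPA14 had no window.

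**Figure D1:**
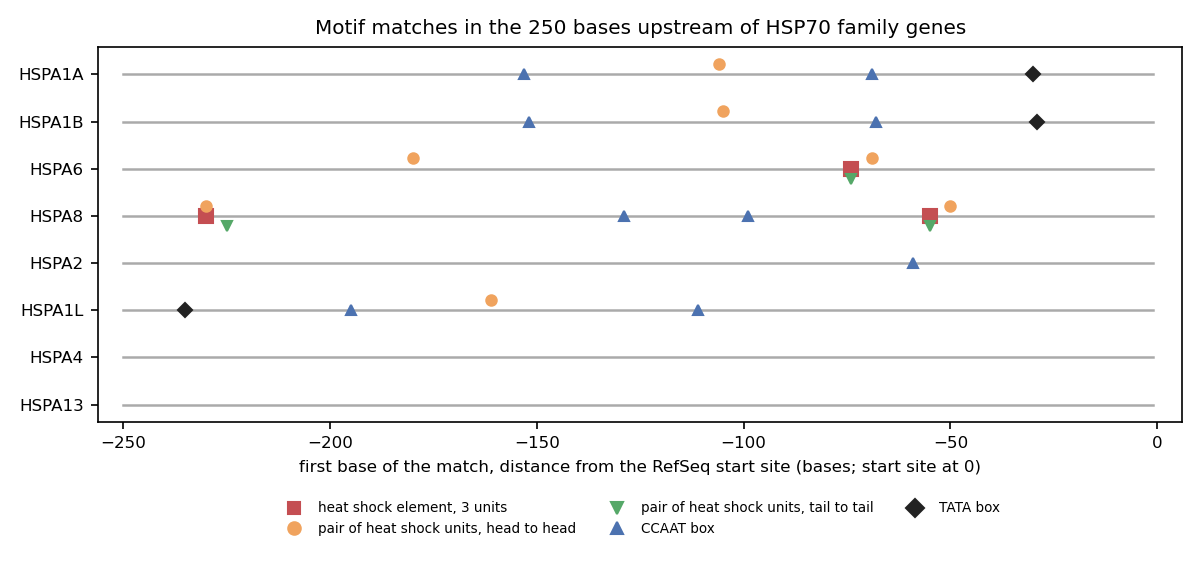
Matches to 5 motifs in the 250 bases upstream of 8 HSP70 family genes, with the first base of each match on the x axis in bases from the RefSeq start site and 1 line per gene. Squares mark the 3-unit heat shock element, which is at 230 and 55 bases in HSPA8 and 74 bases in HSPA6, and the lines of HSPA4 and HSPA13 are empty.

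At 6 h, 7 members fell under NXP800, 1 rose (HSPA13) and 1 passed in neither direction (HSPA4). HSPA6 was too low to be tested. At the same time 27.8% of the 15979 tested genes were lower and 25% higher, 52.8% in all, by edgeR's quasi-likelihood test at a Benjamini-Hochberg adjusted p below 0.05, the threshold used throughout. The median log2 fold change was -0.92 over the 9 tested members and -0.05 over all tested genes. At 24 h, 6 members fell, 1 rose (HSPA13) and 2 passed in neither direction (HSPA4 and HSPA4L), where 28.6% of tested genes were lower and 27.5% higher, 56% in all. The median was then -0.87 over the members and -0.0033 over all genes. With 1 library left out, 5 to 7 members were called lower at each time and 1 higher. The near-identical copies HSPA1A and HSPA1B count as 2 of those that fell.

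By role, both tested inducible genes and all 3 constitutive genes fell at both times. Of the HSP110-like pair, 1 fell at 6 h and neither passed at 24 h. There HSPA4L did pass with the replicate number as a block (edgeR, adjusted p = 0.0121). The 2 divergent members moved in opposite directions at both times. The plot of CPM by library shows each of these patterns.

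**Figure D2:**
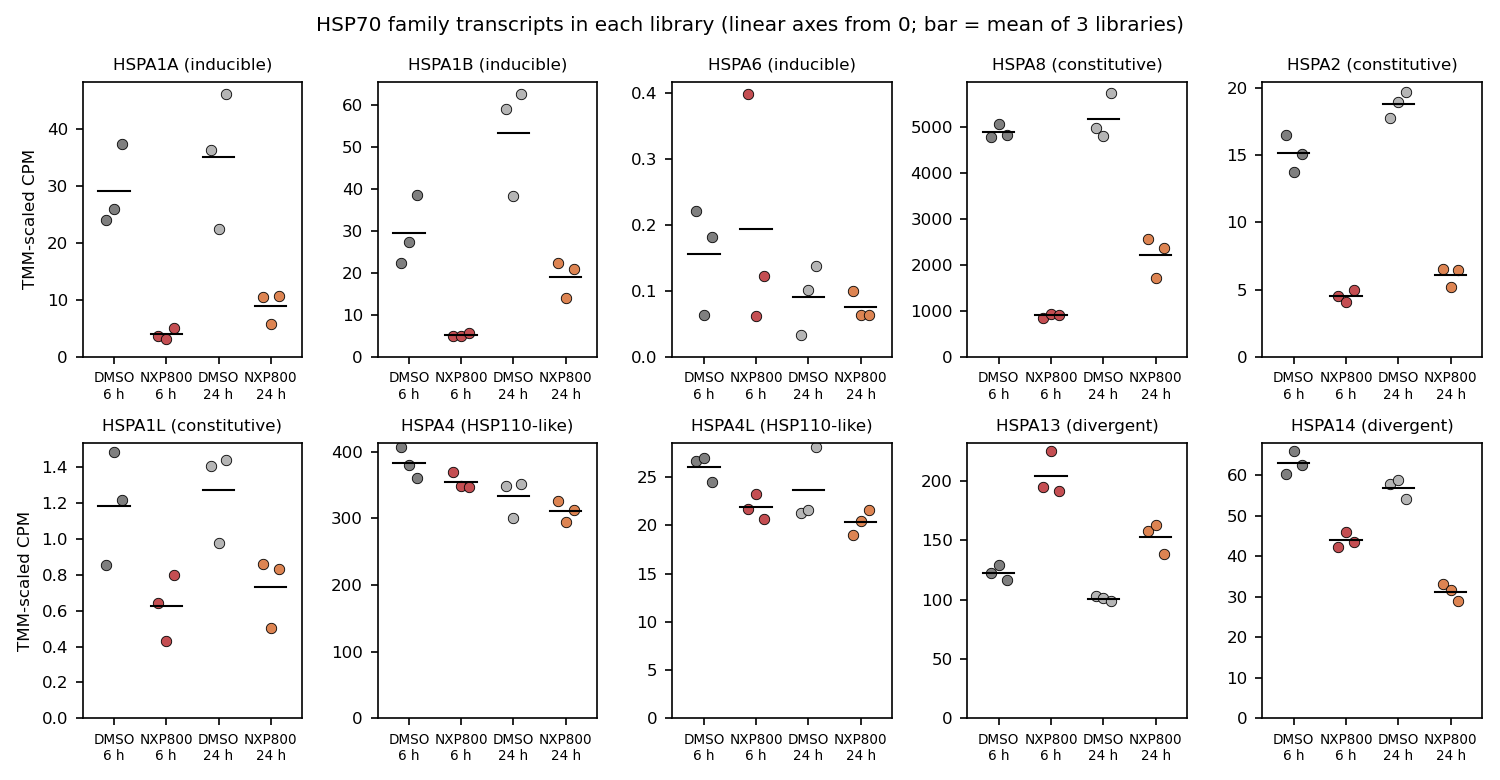
TMM-scaled CPM of each of the 10 genes (y axes linear from 0) in the 4 groups on the x axis, with 1 point per library and a bar at the mean of 3. HSPA8 drops from 4779 to 5065 in DMSO to 848 to 936 with NXP800 at 6 h, HSPA13 is the gene whose NXP800 points lie above DMSO at both times, and the points of HSPA4 and HSPA6 overlap.

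The inducible copies HSPA1A and HSPA1B encode the same stress-induced chaperone, often called HSP72. The values given here are of RNA. By western blot at 24 h the study saw no effect of NXP800 on this protein. HSPA1A stood at 24.0, 26.0 and 37.4 CPM in the DMSO libraries of 6 h and at 3.72, 3.12 and 4.97 with NXP800. At 24 h it stood at 36.3, 22.5 and 46.1 CPM in DMSO and at 10.6, 5.71 and 10.6 with NXP800. Every NXP800 library lay below every DMSO library of its time, as in 32.7% of tested genes at 6 h and 30.1% at 24 h (in either direction, 62% and 59.1% of tested genes had groups apart). HSPA1A was 7.39-fold lower at 6 h (log2 fold change -2.89 ± 0.28, SE; adjusted p = 3.9e-07) and 3.91-fold lower at 24 h (-1.97 ± 0.26; adjusted p = 7.79e-06).

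HSPA1B stood at 22.5, 27.3 and 38.6 CPM in DMSO and 5.00, 4.96 and 5.62 with NXP800 at 6 h. The corresponding values at 24 h were 59.2, 38.4 and 62.8 CPM and 22.5, 13.98 and 20.9 CPM. Its groups did not overlap at either time. The fall was 5.68-fold at 6 h (log2 -2.50 ± 0.23; adjusted p = 1.87e-07) and 2.80-fold at 24 h (-1.49 ± 0.20; adjusted p = 1.14e-05). In GENCODE, 36.6% of the exon length of HSPA1B is shared with another annotated gene. RefSeq, the annotation that the study names, places no other gene within the span of HSPA1B.

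Summed, which leaves out the choice between the copies, they were at 58.6 ± 15.5 CPM (SD, n = 3) in DMSO and 9.13 ± 1.31 with NXP800 at 6 h, and at 88.5 ± 24.8 and 28.1 ± 7.29 CPM at 24 h. The sum fell 6.42-fold at 6 h (log2 -2.68 ± 0.24; adjusted p = 1.39e-07) and 3.15-fold at 24 h (-1.66 ± 0.22; adjusted p = 7.73e-06). Side by side, the sum ranged from 46.5 to 76.0 CPM in DMSO at 6 h and from 60.9 to 109 at 24 h, ranges that overlap, and time and library set cannot be told apart there.

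The counts placed on HSPA1A and on HSPA1B did not shrink in proportion. HSPA1A took 51.6, 48.8 and 49.2% of the counts of both copies in DMSO at 6 h and 42.6, 38.6 and 47.0% with NXP800. At 24 h it took 38.0, 36.9 and 42.3% in DMSO and 32.0, 29.0 and 33.7% with NXP800. The shares did not overlap within a time, and the log2 ratio of HSPA1A to HSPA1B was lower with NXP800 by -0.42 at 6 h and -0.48 at 24 h. A two-sided exact permutation test over libraries within times gave p = 0.005, the smallest that its 400 regroupings allow (paired by replicate number p = 0.0312, the smallest of 64). This comparison was chosen after its values had been seen, and reads shared by the copies bear on it in a way that was not tested.

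HSPA6, the strictly stress-induced member that rodents lack, was close to silent. It had 2 to 7 counts per library in DMSO and 2 to 13 with NXP800 at 6 h, and 1 to 4 and 2 to 3 counts at 24 h. The groups overlapped at both times, and without the filter on low counts edgeR gave adjusted p = 0.779 at 6 h and 0.951 at 24 h. A change in HSPA6 was not detectable at this depth.

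HSPA8, the constitutive cognate that serves protein folding and the uncoating of clathrin vesicles, carried most of the family's transcripts. It stood at 4779, 5065 and 4840 CPM in DMSO and at 848, 936 and 919 CPM with NXP800 at 6 h. At 24 h it stood at 4978, 4819 and 5752 CPM in DMSO and at 2571, 1709 and 2374 CPM with NXP800. The groups were far apart at both times, and the NXP800 libraries of 24 h lay between those of NXP800 at 6 h and the DMSO libraries. HSPA8 was 5.43-fold lower at 6 h (log2 -2.44 ± 0.12; adjusted p = 3.68e-10) and 2.34-fold lower at 24 h (-1.22 ± 0.12; adjusted p = 3.09e-07). The introns of HSPA8 host the small nucleolar RNAs SNORD14C, SNORD14D and SNORD14E, whose own counts were not analysed here.

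HSPA8 alone made up 0.505% of all counts on genes in DMSO and 0.0941% with NXP800 at 6 h, and 0.483% and 0.219% at 24 h (means of 3 libraries). Of the counts of the 10 members, HSPA8 took 88.0% in DMSO and 58.5% with NXP800 at 6 h, and 89.2% and 79.8% at 24 h. The members together fell from 0.574% to 0.161% of all counts at 6 h and from 0.541% to 0.274% at 24 h, and most of that loss was HSPA8.

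HSPA2 (chr14:64535905-64543237, + strand), a constitutive member known for its role in male germ cells, stood at 16.5, 13.7 and 15.1 CPM in DMSO and 4.54, 4.10 and 4.97 CPM with NXP800 at 6 h. At 24 h it stood at 17.8, 19.0 and 19.7 CPM and at 6.54, 5.17 and 6.48 CPM. NXP800 and DMSO libraries did not overlap, and the fall was of similar size at both times. It was 3.33-fold at 6 h (log2 -1.74 ± 0.12; adjusted p = 7.5e-09) and 3.11-fold at 24 h (-1.63 ± 0.11; adjusted p = 6.41e-09).

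HSPA1L, a paralogue expressed mainly in testis that shares its upstream region with HSPA1A, was low, with 14 to 47 counts per library. It stood at 0.855, 1.48 and 1.22 CPM in DMSO and 0.645, 0.428 and 0.798 CPM with NXP800 at 6 h, and at 1.41, 0.975 and 1.44 against 0.859, 0.502 and 0.830 CPM at 24 h. The groups were apart by narrow gaps. It fell 1.89-fold at 6 h (log2 -0.92 ± 0.30; adjusted p = 0.016) and 1.74-fold at 24 h (-0.80 ± 0.29; adjusted p = 0.0283). The call at 6 h was lost without DMSO replicate 2 or NXP800 replicate 2 of 6 h (adjusted p 0.0835 and 0.082), and the call at 24 h without DMSO replicate 1, DMSO replicate 3 or NXP800 replicate 2 of 24 h (0.0812 to 0.142) and by DESeq2's Wald test (0.0624). Over all alternatives the adjusted p ran from 0.00539 to 0.0835 at 6 h and from 0.0105 to 0.142 at 24 h.

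The HSP110-like members HSPA4 (chr5:133052013-133106449, + strand) and HSPA4L (chr4:127781796-127840733, + strand) act as nucleotide exchange factors for HSP70 and hold unfolded proteins themselves. HSPA4 stood at 407, 380 and 361 CPM in DMSO and 370, 348 and 347 CPM with NXP800 at 6 h, and at 349, 300 and 351 against 325, 294 and 312 CPM at 24 h. The groups overlapped at both times. The log2 fold change was -0.11 at 6 h (95% interval -0.26 to 0.04; adjusted p = 0.224) and -0.10 at 24 h (-0.26 to 0.05; adjusted p = 0.239). These intervals do not reach a change of the size seen in HSPA8, HSPA2 or the inducible copies.

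HSPA4L stood at 26.7, 27.0 and 24.5 CPM in DMSO and 21.7, 23.2 and 20.6 CPM with NXP800 at 6 h, and at 21.2, 21.6 and 28.1 against 19.0, 20.4 and 21.6 CPM at 24 h. The groups were apart at 6 h and overlapped at 24 h. HSPA4L fell 1.19-fold at 6 h (log2 -0.25 ± 0.10; adjusted p = 0.0435) and was at -0.22 ± 0.10 at 24 h (adjusted p = 0.0813). The 6 h call was lost with DESeq2's size factors (adjusted p = 0.0567), with library size only (0.0594), by DESeq2's Wald test (0.0703) and when any of 5 libraries was left out (DMSO replicates 1 and 2 and NXP800 replicates 1 and 3 of 6 h, and NXP800 replicate 2 of 24 h), with 0.00291 to 0.139 over all alternatives. With the replicate number as a block HSPA4L also passed at 24 h (adjusted p = 0.0121, in a range of 0.0121 to 0.504), and so it did without DMSO replicate 1 or 2 of 24 h.

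HSPA13 (chr21:14371115-14383146, - strand), also called STCH, is a divergent member with an ATPase domain but no usual peptide-binding domain, found with microsomes. It stood at 123, 129 and 117 CPM in DMSO and 195, 226 and 192 CPM with NXP800 at 6 h, and at 103, 101 and 98.6 against 158, 163 and 138 CPM at 24 h. All NXP800 libraries lay above all DMSO libraries of their time, as in 29.3% of tested genes at 6 h and 29% at 24 h. HSPA13 rose 1.66-fold at 6 h (log2 0.73 ± 0.08; adjusted p = 6.95e-07) and 1.52-fold at 24 h (0.60 ± 0.08; adjusted p = 4.85e-06), the only member that rose.

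HSPA14 (chr10:14838306-14871741, + strand), also called HSP70L1, works with the J-domain protein DNAJC2 at the ribosome as part of the ribosome-associated complex. It stood at 60.3, 66.1 and 62.5 CPM in DMSO and 42.2, 46.0 and 43.6 CPM with NXP800 at 6 h, and at 57.8, 58.8 and 54.1 against 33.0, 31.7 and 29.1 CPM at 24 h. The groups were apart and the gap was wider at 24 h. The fall was 1.43-fold at 6 h (log2 -0.52 ± 0.07; adjusted p = 8.97e-06) and 1.82-fold at 24 h (-0.87 ± 0.07; adjusted p = 3.16e-08). In GENCODE 18% of its exon length overlaps exons of CDNF and MSANTD7. RefSeq, the annotation that the study names, places MSANTD7 and SUV39H2-DT but not CDNF within the span of HSPA14. The strand setting of the counting is not given in the sources used here. DNAJC2, the partner of HSPA14, passed at neither time (adjusted p = 0.29 and 0.431).

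**Figure D3:**
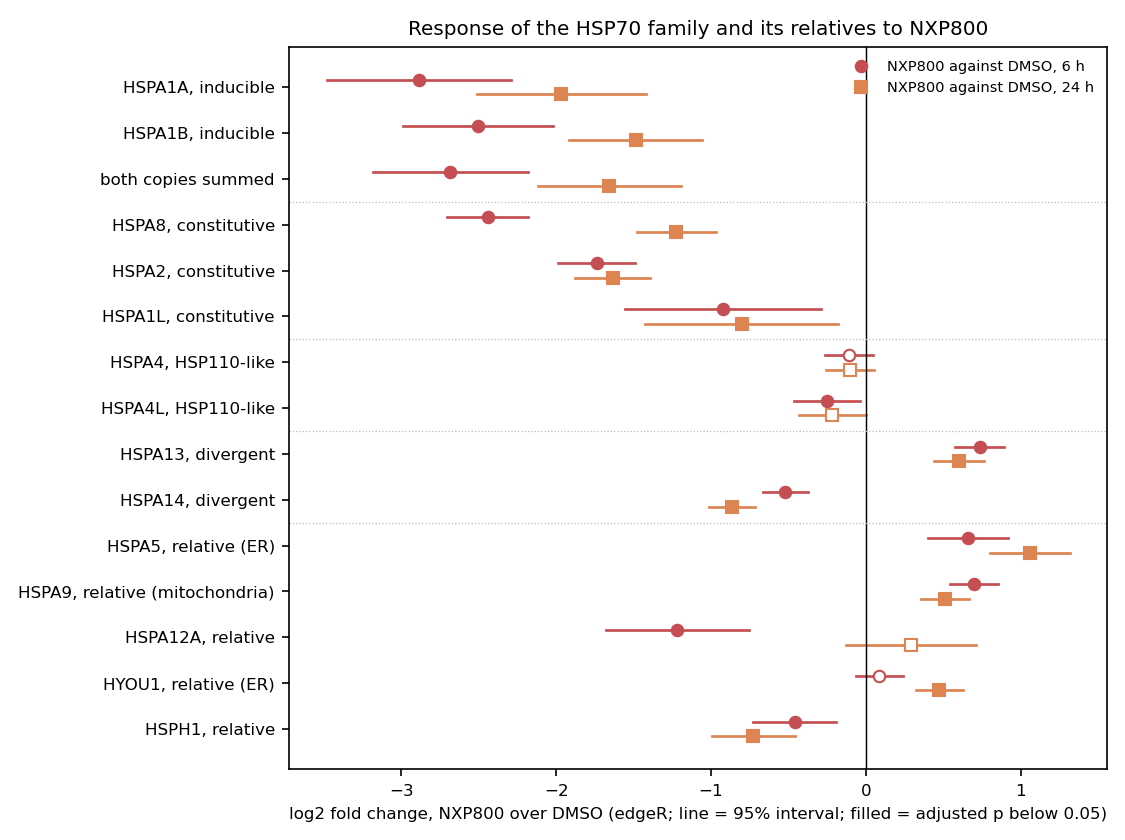
Log2 fold change of NXP800 over DMSO (x axis) for 9 members, the summed copies and 5 relatives (y axis, grouped by role), with circles for 6 h, squares for 24 h, lines for 95% intervals and filled symbols for an adjusted p below 0.05 (edgeR). The inducible and constitutive genes lie left of 0 at both times, the HSP110-like pair close to 0, and HSPA13, HSPA5 and HSPA9 right of 0.

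The responses at the 2 times were then set against each other, as the log2 fold change at 24 h minus that at 6 h in the same model. Each response was taken within its time, but time and library set cannot be told apart in their difference. Of all tested genes 25.8% were called here, 13.8% lower and 12% higher (46.6% of the calls were higher, against 59.6% with library size only). Of the 9 tested members, HSPA8 and HSPA1B were called higher and HSPA14 lower. The response of HSPA8 was weaker at 24 h, by a log2 difference of 1.22 ± 0.17 (adjusted p = 7.9e-05), and the call held in each of the 17 alternatives, with adjusted p between 3.78e-25 and 0.00048. HSPA14 went the other way, with a difference of -0.35 ± 0.10 (adjusted p = 0.0154), and its call was lost with library size only (adjusted p = 0.0555, in a range of 0.00088 to 0.0555).

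For the inducible copies the change between times was less secure. The difference was 1.02 ± 0.30 for HSPA1B (adjusted p = 0.0212), 1.02 ± 0.32 for the sum (0.0257) and 0.92 ± 0.38 for HSPA1A (0.0869, not called). HSPA1B lost its call in 4 of 12 cases with 1 library left out: DMSO replicate 3 and NXP800 replicates 1 and 2 of 6 h and NXP800 replicate 1 of 24 h (adjusted p between 0.0507 and 0.0557). The sum lost it in 6, those without DMSO replicate 3 or NXP800 replicate 1 or 2 of 6 h, or without DMSO replicate 2 or NXP800 replicate 1 or 3 of 24 h (0.0514 to 0.0683). HSPA1A passed with the replicate block (adjusted p = 1.7e-05), when low genes were kept (1.04e-07) and in the fits that leave out DMSO replicate 3 or NXP800 replicate 2 of 24 h (0.032 and 0.026), in a range of 1.04e-07 to 0.197. The same block raised the number of genes called for the difference from 4129 to 6284.

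HSPA2, HSPA1L, HSPA4, HSPA4L and HSPA13 passed no test of the difference between times. The 95% interval was -0.24 to 0.45 for HSPA2, -0.21 to 0.22 for HSPA4, -0.27 to 0.34 for HSPA4L and -0.36 to 0.09 for HSPA13, all of which leave out the difference seen in HSPA8. For HSPA1L it was wider, -0.77 to 1.01, which leaves out the 1.22 of HSPA8 but reaches into the HSPA8 interval of 0.86 to 1.57.

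Within a library the family was recomposed. HSPA4 plus HSPA4L came to 9.08, 8.03 and 7.97% of the counts of HSPA8 in DMSO at 6 h and to 46.2, 39.6 and 40.0% with NXP800. At 24 h the same ratio was 7.43, 6.68 and 6.59% in DMSO and 13.4, 18.4 and 14.05% with NXP800. Every NXP800 library was above every DMSO library of its time. Since HSPA4 changed little, this ratio mostly restates the fall of HSPA8 and is not separate evidence about the HSP110-like pair. The log2 ratio was higher with NXP800 by 2.33 at 6 h and 1.13 at 24 h, a mean of 1.73, with p = 0.005 by a two-sided exact permutation test within times, the smallest that 400 regroupings allow. With pairs of the same replicate number p was 0.0312, the smallest of 64, and within 1 time the smallest possible p of 0.1 was reached at both.

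In contrast, HSPA1A plus HSPA1B came to 0.972, 1.05 and 1.57% of the counts of HSPA8 in DMSO at 6 h and to 1.03, 0.863 and 1.15% with NXP800, which overlap. At 24 h it came to 1.92, 1.26 and 1.89% in DMSO and to 1.28, 1.15 and 1.33% with NXP800, and the ranges met there too. The log2 ratio differed by -0.22 at 6 h and -0.41 at 24 h, a mean of -0.31 that did not pass the exact permutation test (p = 0.095; with the replicate block, exchanging pairs, p = 0.0625). DMSO replicate 2 of 24 h decides this call: without it the mean was -0.41 with an exact permutation p = 0.035, in a range of 0.035 to 0.2 over the alternatives.

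**Figure D4:**
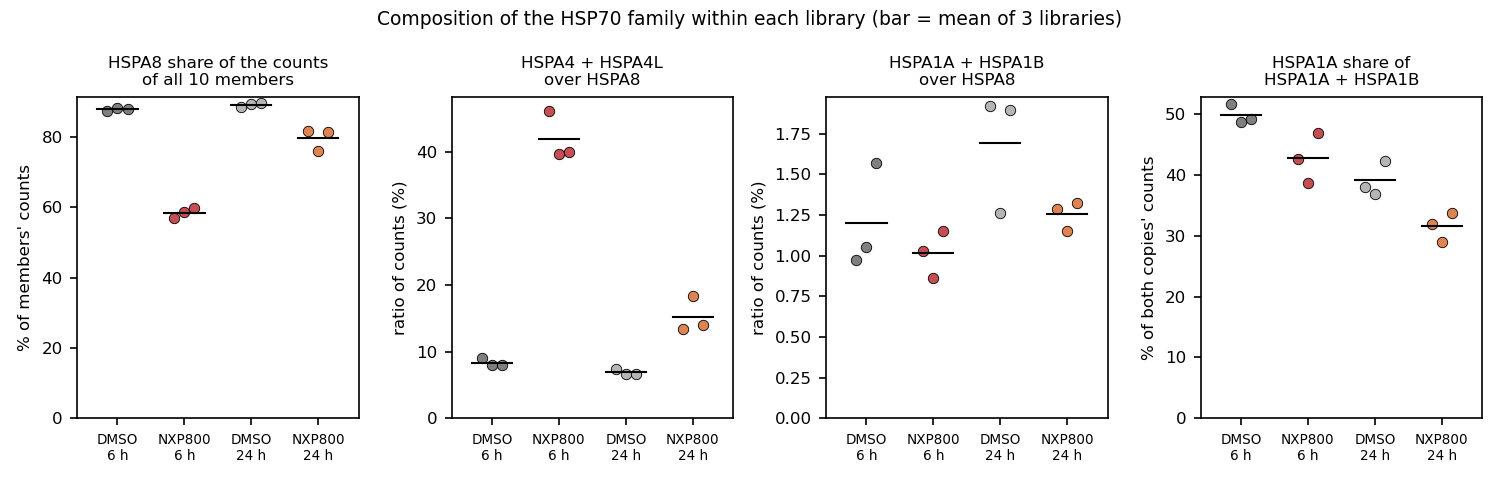
Composition of the family in each library (1 point per library, bar at the mean of 3; y axes in percent from 0): the share of HSPA8 in the counts of the 10 members, HSPA4 plus HSPA4L over HSPA8, HSPA1A plus HSPA1B over HSPA8, and the share of HSPA1A in both copies. HSPA8 drops from 88.0% to 58.5% of the members' counts at 6 h, while HSPA4 plus HSPA4L rises from 8.36% to 42.0% of HSPA8.

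Per kilobase of the main transcript, the scale on which levels of different genes can be compared, HSPA8 led in all 4 groups, at 2162 CPM per kb in DMSO and 398 with NXP800 at 6 h, and at 2289 and 980 at 24 h. HSPA4 was next in every group, at 80.1 and 74.3 CPM per kb at 6 h and 69.8 and 65.0 at 24 h. HSPA8 was thus above HSPA4 in every library, by a distance that narrowed with NXP800. Below them in DMSO at 6 h came HSPA14 (35.7), HSPA13 (31.1), the summed copies (23.8), HSPA2 (6.06), HSPA4L (2.46), HSPA1L (0.429) and HSPA6 (0.0661 CPM per kb), where HSPA13 and the summed copies overlapped. Where reads from the stretches shared by HSPA1A and HSPA1B were kept apart, the level of the sum per kb is too low, so its rank and its percent of HSPA8 are lower limits, while its folds compare libraries counted alike.

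With NXP800 at 6 h the order below HSPA4 was HSPA13 (51.7), HSPA14 (24.9), the summed copies (3.70), HSPA4L (2.06), HSPA2 (1.82), HSPA1L (0.226) and HSPA6 (0.0825 CPM per kb). HSPA4L and HSPA2 overlapped, as did HSPA1L and HSPA6. In DMSO at 24 h the order was the summed copies (35.8), HSPA14 (32.3) and HSPA13 (25.6 CPM per kb), where the sum, from 24.6 to 44.2, overlapped both of the others, and with NXP800 the order was HSPA13 (38.8), HSPA14 (17.7) and the summed copies (11.3 CPM per kb) without overlap. HSPA13 thus stood above HSPA14 in every NXP800 library and below it in every DMSO library. At 24 h HSPA2, HSPA4L, HSPA1L and HSPA6 closed the order in both groups, each without overlap with the next.

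The relatives outside the cytosolic core gave a different picture. HSPA5 (BiP), the HSP70 of the endoplasmic reticulum, stood at 683, 632 and 614 CPM in DMSO and 1013, 1091 and 941 CPM with NXP800 at 6 h, and at 695, 786 and 1045 against 1862, 1869 and 1526 CPM at 24 h. It rose at both times without overlap (log2 0.66 ± 0.12, adjusted p = 0.00026, and 1.06 ± 0.12, adjusted p = 1.97e-06). HSPA9 (mortalin), the mitochondrial HSP70, rose 1.62-fold at 6 h (adjusted p = 8.48e-07) and 1.43-fold at 24 h (adjusted p = 1.77e-05). HYOU1, the HSP110-like protein of the endoplasmic reticulum, passed at 24 h, with a rise of 0.47 ± 0.07 on the log2 scale (adjusted p = 3.13e-05), and not at 6 h, where it was at 0.09 ± 0.07 (adjusted p = 0.33).

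HSPH1 (HSP105), the third cytosolic HSP110-like gene and itself heat-inducible, fell at both times, unlike HSPA4. It went from 336, 301 and 296 CPM to 232, 231 and 215 CPM at 6 h and from 240, 216 and 337 CPM to 157, 142 and 180 CPM at 24 h. The log2 fold changes were -0.46 ± 0.13 (adjusted p = 0.00565) and -0.73 ± 0.13 (adjusted p = 0.000129). HSPA12A, a distant relative with an atypical ATPase domain, fell at 6 h (-1.22 ± 0.22; adjusted p = 0.000197) and was at 0.29 ± 0.20 at 24 h (adjusted p = 0.224). HSPA12B, with 0 to 7 counts per library, and the pseudogene HSPA7, with 0 to 2, were too low to be tested.

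Among 19 partner genes that work with HSP70, all tested, 9 fell and 2 rose at 6 h, and 7 fell and 3 rose at 24 h, with medians of -0.14 and -0.07 on the log2 scale. Over all tested genes 27.8% fell and 25% rose at 6 h, and 28.6% and 27.5% at 24 h. Of the 10 J-domain genes 4 fell and 2 rose at 6 h and 3 fell and 2 rose at 24 h, close to the shares of all tested genes called (52.8% and 56%). The largest falls among called partners at both times were those of BAG3, DNAJA1 and DNAJB1. BAG3, the exchange factor that links HSP70 to autophagy, went from 153, 149 and 155 CPM to 68.7, 63.0 and 75.0 CPM at 6 h and from 183, 171 and 184 CPM to 118, 97.8 and 109 CPM at 24 h (log2 -1.15 ± 0.08 and -0.73 ± 0.07; adjusted p = 6.19e-09 and 5.86e-07).

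DNAJA1 and DNAJB1 are the main heat-inducible J-domain partners of HSP70 in the cytosol. DNAJA1 fell 2.15-fold at 6 h (log2 -1.10 ± 0.09; adjusted p = 5.68e-08) and 1.46-fold at 24 h (-0.55 ± 0.09; adjusted p = 7.36e-05). DNAJB1 fell by 0.91 ± 0.10 and 0.65 ± 0.10 (adjusted p = 1.11e-06 and 2.63e-05). On the same scale these falls were smaller than those of HSPA8 and of the inducible copies, and the 95% intervals did not overlap at either time. DNAJB2, a J-domain protein that directs clients to the proteasome, went from 17.9, 16.3 and 17.2 CPM to 33.9, 28.6 and 27.7 CPM at 6 h and rose at both times (log2 0.81 ± 0.13 and 1.15 ± 0.13; adjusted p = 5.7e-05 and 1.44e-06).

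DNAJB5 rose 1.62-fold at 6 h (log2 0.70 ± 0.14; adjusted p = 0.000437) and 1.29-fold at 24 h (0.37 ± 0.13; adjusted p = 0.0252). The 24 h call was lost without DMSO replicate 3 or NXP800 replicate 1 or 2 of 24 h (0.0529 to 0.125) and in the fit of the 6 libraries of 24 h (0.0501). BAG5 rose by 0.21 ± 0.07 at 24 h (adjusted p = 0.0137), a call lost without DMSO replicate 2 or NXP800 replicate 1 of 24 h (0.0731 and 0.0627). At 6 h BAG5 was at 0.15 ± 0.07 without overlap of the groups and was not called (adjusted p = 0.064). There it passed with the replicate block (0.0115), DESeq2's size factors (0.045), library size only (0.0442) and DESeq2's Wald test (0.0485). It also passed in the fit of the 6 libraries of 6 h (0.0181), and without DMSO replicate 3 of 6 h (0.0469) or NXP800 replicate 2 of 24 h (0.0321). The adaptors STIP1 (HOP) and ST13 (HIP), which connect HSP70 with HSP90, fell at both times, and the ubiquitin ligase STUB1 (CHIP) fell at 6 h.

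The partners DNAJA1, DNAJA4 and BAG3 had a called difference between times, all toward a weaker fall or none at 24 h, and are named here after their values were seen. The call of DNAJA4 was lost in 6 of 12 fits with 1 library left out, those without DMSO replicate 1 or 3 or NXP800 replicate 2 of 6 h, or without DMSO replicate 1 or 2 or NXP800 replicate 3 of 24 h (adjusted p 0.0568 to 0.0789). With the replicate block 8 partners were higher, among them DNAJB1, DNAJB2, DNAJB4, BAG2 and STUB1, and 2 lower (ST13 and DNAJC7). That block called 6284 of the 15979 tested genes for this difference, against 4129 without it. The rise in calls is thus not particular to the partners.

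**Figure D5:**
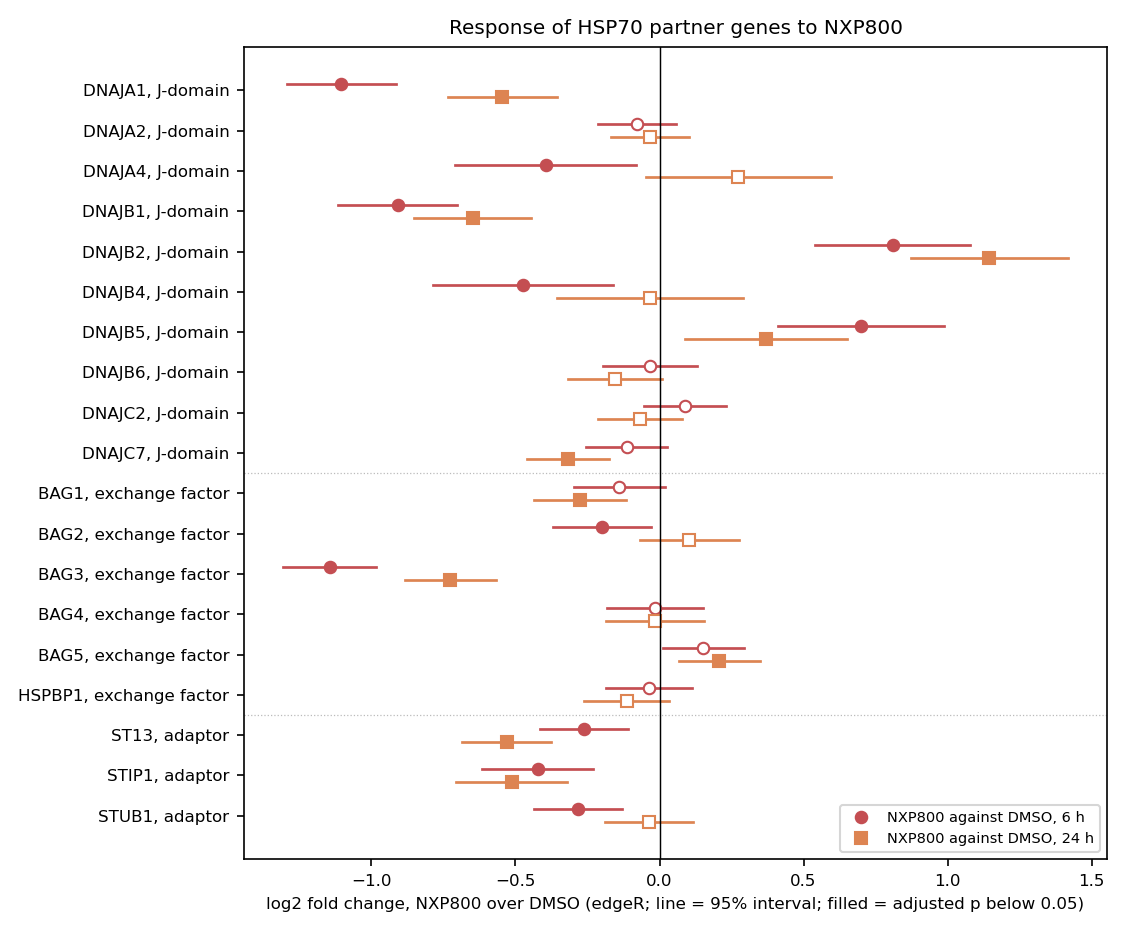
Log2 fold change of NXP800 over DMSO (x axis) for 19 partner genes of HSP70 (y axis, by role), with circles for 6 h, squares for 24 h, lines for 95% intervals and filled symbols for an adjusted p below 0.05 (edgeR). BAG3, DNAJA1 and DNAJB1 lie furthest left and DNAJB2 furthest right.

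The genes whose log2 CPM ran most nearly parallel to a member over the 12 libraries were sought among 9179 tested genes with a mean of at least 10 CPM. Nearest to HSPA8 were LPCAT1 (Pearson r = 0.994), RIC8B, PTGFRN, BRI3BP and PCDHGC3, with r of at least 0.986. Nearest to the summed copies were BAG3 (r = 0.987), TOR3A, STIMATE, PIK3R2 and ICMT, with r of at least 0.978. Nearest to HSPA13 were NAMPT (r = 0.993), PARP8, IL6ST, ELF1 and NRIP1, with r of at least 0.989. The 12 points share their groups, so these correlations mostly describe a like response to NXP800 at both times and carry no test.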

How the data were processed

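RNA-seq libraries of HOS-MNNG cells were prepared from polyA RNA (strand-specific kit) and read as pairs of 100 bases. The deposited tables hold unnormalized read counts for each gene symbol. Per the submitters' processing notes, the authors used fastp 0.20.1, STAR 2.7.5a and HTSeq 0.12.4 on GRCh38.p14 (hg38). The strand setting, the counting mode and the handling of reads on several genes are not given in the sources used here. Counter totals without a gene stayed out of library sizes and tests (shares of no-feature and multiply aligned reads stand in the report, and ambiguous reads were 2.10 to 2.43%). Library totals of 30810614 to 31947656 counts leave the spread between replicates as the limit for most genes named, and counting error for the low ones (HSPA6, HSPA1L, HSPA7, HSPA12A and HSPA12B). Replicates differed beyond sampling noise (chi-square over its degrees of freedom, 7.36 to 26.3), and each was used as its own sample.

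The software was edgeR 4.0.16 under R 4.3.3, with DESeq2 1.42.0 and limma 3.58.1 beside it. filterByExpr (minimum count 10) kept 15979 of 43236 symbols. One quasi-likelihood model of 4 groups with TMM scaling gave the contrasts, adjusted by Benjamini-Hochberg over all tested genes, with a common dispersion of 0.00723. The sum of HSPA1A and HSPA1B was fitted in a table in which it replaced both (15978 genes). Log-ratios within a library were tested by exact permutation. CPM are TMM-scaled, CPM per kb uses the length of the GENCODE main transcript, and likeness used log2(CPM + 0.5). All members and relatives are named, of the partners the 3 largest called rises and falls at each time, and 5 genes nearest to HSPA8, the summed copies and HSPA13. Members and lists were chosen with earlier results of these data known. Sequences and gene positions are from RefSeq (GRCh38.p14), with an upstream window for 9 of 10 members.

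Replicate numbers of the titles pair the libraries of a time: after removal of group means, NXP800 and DMSO libraries sharing a number had across-gene correlations of 0.224 to 0.439, those with different numbers at most 0.0540, and genes are not independent replicates. Alternatives tried were DESeq2's Wald test and, in edgeR, no filter, scaling by library size alone or by DESeq2's size factors, the replicate block, the 6 libraries of a time, each copy alone, ratios per kb and each library left out. On simulated counts with 200 genes changed 2-fold, edgeR recovered 195 at 6 h with 12 other calls among 15655 genes, 197 with 10 at 24 h, and 177 with 9 among 15636 for the difference between times. The changed genes were well counted and in equal parts up and down, and no pairing of libraries was simulated. Their share was far below the 52.8% of tested genes called at 6 h, so these rates need not hold for the data.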

Additional observations from a re-analysis of the deposited data

Results flagged for a closer look

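Of the members, HSPA8 (1.22), HSPA1B (1.02), the sum of HSPA1A and HSPA1B (1.02) and HSPA14 (-0.35) had responses that differed between 6 h and 24 h, as log2 fold change at 24 h minus that at 6 h, with an adjusted p below 0.05 for the difference itself (edgeR). In HSPA8, HSPA1B and the sum the fall was smaller at 24 h, and in HSPA14 it was larger. Time and library set cannot be told apart in any of the differences given here. HSPA1A alone did not pass (adjusted p = 0.0869), and the calls of HSPA1B and the sum were lost in 4 and 6 of 12 fits with 1 library left out. Of the relatives, HSPA12A (1.51 ± 0.29; adjusted p = 0.00145) and HYOU1 (0.39 ± 0.10; adjusted p = 0.00981) had higher responses at 24 h. HSPA12A had fallen at 6 h from 1.96, 3.03 and 2.31 CPM to 1.07, 1.07 and 0.983 CPM, while its groups overlapped at 24 h. Of the partners, DNAJA4 (0.67 ± 0.21; adjusted p = 0.029), DNAJA1 (0.56 ± 0.13; adjusted p = 0.00408) and BAG3 (0.42 ± 0.11; adjusted p = 0.00848) had higher responses at 24 h.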

How the results depend on the processing

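The falls of HSPA1A, HSPA1B, their sum, HSPA8, HSPA2 and HSPA14 and the rise of HSPA13 kept direction and call at both times in every alternative. Values below are log2 differences or numbers of genes, and the cause of a change was not tested. The difference between times turned sign for HSPA4, which is close to 0, with DESeq2's size factors (-0.00109) and DESeq2's Wald test (-0.00287). With library size only, 0 members were lower in that comparison in place of 1 and 5 partners higher in place of 3, and at 24 h DNAJC2 (0.0239) and STUB1 (0.0527) turned sign without a call at either setting. With the replicate block, 6284 genes were called in place of 4129, with 1 relative lower (HSPH1) in place of 0, 2 partners lower in place of 0 and 8 higher in place of 3. Beside the blocked calls in the report, HSPA5 (0.42) then passed for the difference between times, and DNAJA4 (0.28), DNAJB6 (-0.15) and HSPBP1 (-0.12) at 24 h. The block changed no other call of a member, relative or partner. HSPA1A alone in place of the sum gave 0.92 and lost the call. With 1 library left out, the difference between times ran from -0.0931 to 0.332 for HSPA1L, -0.0656 to 0.0442 for HSPA4, -0.0349 to 0.178 for HSPA4L, -0.17 to 0.00531 for STIP1 and 0.79 to 1.23 for the sum, members higher there from 1 to 3, partners lower from 0 to 1 and partners higher from 2 to 6. The log2 fold change of STUB1 at 24 h ran from -0.126 to 0.0619, partners higher at 24 h from 1 to 3, and the log2 ratio of the summed copies to HSPA8 from -0.41 to -0.21. Depth limits HSPA6 and HSPA1L, and a group left with 2 libraries shared the spread of all groups.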
